A study of Mus musculus with 6 samples.

Results

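Heat shock proteins and chaperonins are described here as a set of 10 genes, Hspa1a, Hspa1b, Hspa8, Hsp90aa1, Hsp90ab1, Hspb1, Hsph1, Dnajb1, Hspd1 and Hspe1, out of 23896 gene symbols in the count tables. Each member was found by mapping RefSeq transcripts to symbols, and each had 1 transcript in the tables. The cells were MEL cells, a mouse erythroleukemia line held at an early erythroid stage, which differentiate towards red cells when DMSO is added. Cultures in log phase growth received 2% DMSO, and poly(A)-selected, strand-specific mRNA-seq libraries were made on days 0, 2 and 4, with 2 biological replicates a day and 6 libraries in all. All libraries come from this 1 line in the same serum-supplemented medium. No DMSO-free culture at day 2 or day 4 was analysed here, so DMSO and time in culture cannot be told apart.

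Chaperones bind unfolded protein and help it fold, most of them with ATP. HSP70 (Hspa8, Hspa1a, Hspa1b) takes up exposed hydrophobic segments, J-domain proteins such as Dnajb1 deliver clients and start its ATPase, and HSP110 (Hsph1) exchanges its nucleotide. HSP90 (Hsp90aa1, Hsp90ab1) finishes kinases, steroid receptors and other regulators, small heat shock proteins (Hspb1) hold aggregation-prone protein without ATP, and chaperonins fold protein inside a closed chamber, HSP60 (Hspd1) with its lid HSP10 (Hspe1) in mitochondria and TRiC/CCT in the cytosol. Stress switches the inducible members on through heat shock factor 1, which binds inverted repeats of the unit nGAAn, the heat shock element. In erythroid cells, HSP70 is known to protect the transcription factor GATA1 from cleavage.

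The DNA around the start sites is shown first because it shows which form of the heat shock letters, if any, a member carries. RefSeq promoter windows of GRCm38.p6, from 250 bases before to 50 bases after a start, were searched on both strands for 3 units (GAANNTTCNNGAA) and for 2 units (GAANNTTC or TTCNNGAA, which lie within the 3-unit form). Windows were found for Hspa1a, Hspa1b, Hspb1, Hsph1, Dnajb1, Hspd1 and Hspe1. Stretches are written 5′ to 3′ on the gene's strand, with matches in capitals. The first 2 hold the 3-unit form, the next 2 the 2-unit form, and the Dnajb1 stretch holds neither.
Hspe1, chr1:55088053-55088082, + strand, 95 to 66 bases before the start: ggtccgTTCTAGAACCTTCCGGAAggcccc
Hsph1, chr5:149636287-149636316, - strand, 20 to 49 bases after the start: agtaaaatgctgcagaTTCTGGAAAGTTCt
Hspa1a, chr17:34972157-34972306, - strand, the 150 bases before the start: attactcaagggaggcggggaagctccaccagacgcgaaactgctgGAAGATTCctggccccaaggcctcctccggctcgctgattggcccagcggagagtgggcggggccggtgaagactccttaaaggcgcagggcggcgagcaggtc
Hspb1, chr5:135887769-135887918, + strand, the 150 bases before the start: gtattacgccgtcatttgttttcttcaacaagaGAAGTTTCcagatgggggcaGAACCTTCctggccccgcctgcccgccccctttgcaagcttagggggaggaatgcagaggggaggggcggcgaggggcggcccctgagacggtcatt
Dnajb1, chr8:83608025-83608174, + strand, the 150 bases before the start: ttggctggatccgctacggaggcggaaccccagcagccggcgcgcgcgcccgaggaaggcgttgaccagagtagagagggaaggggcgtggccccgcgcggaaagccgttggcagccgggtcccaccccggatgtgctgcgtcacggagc

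In Hspe1, 2 overlapping 3-unit matches begin 89 and 84 bases before the start. Hspd1 lies head to head with Hspe1 on the opposite strand of chromosome 1, their gene spans share 96 bases, and the same matches begin 144 and 139 bases before the second annotated start of Hspd1, whereas the window of its first start holds none. The 3-unit form occurs in 198 of 32851 RefSeq promoter windows (0.603%), and either 2-unit form in 15.1%. Hspa1a and Hspa1b carry GAANNTTC beginning 104 bases before the start and differ at 4 of 300 bases in this window. Hspb1 carries it 117 and 97 bases before the start, and both Dnajb1 windows hold no match. The 3-unit match of Hsph1 begins 36 bases after its first annotated start, and TTCNNGAA also begins 33 bases before that start. A match describes letters and not a bound site.

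Transcript counts totalled between 35294930 and 53899476 in a library, and levels are given as CPM, counts relative to the TMM-scaled library size. Erythroid markers listed as a check of the labels had a summed level of 676.5 to 746 CPM at day 0, 3813 to 4587 CPM at day 2 and 16736 to 18728 CPM at day 4. Of 8 listed, 7 were in the count tables and tested. At day 4 against day 0, 6 of these 7 were higher, while Klf1 was lower, beside 35.5% higher and 36.4% lower of all tested genes. Markers of other lineages summed to 2.43 to 4.997 CPM over the 6 libraries. Of 12 listed, 6 were tested. At day 2 against day 0, 2 were higher and 3 lower, beside 62.5% of all tested genes called. At day 4 against day 0, 1 was higher and 2 lower, beside 71.8% called. These are bulk cultures, so fewer cells that carry an mRNA and less of it per cell cannot be told apart.

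Of the 10 members, 7 passed the filter on low counts and were tested. At day 2 against day 0, 4 were lower and none was higher, at an edgeR adjusted p below 0.05, the threshold for every call below. The 4 are Hsp90aa1, Hsp90ab1, Hspd1 and Hspe1. For day 2 against day 0, 62.5% of all 12381 tested genes were called, 31.5% lower and 31.0% higher, so calls as such were common. Between day 2 and day 4, Hspd1 and Hspe1 fell further and no member rose, against a background of 30.3% called (16.2% lower and 14.0% higher). Over the whole course, 4 members were lower and 1, Dnajb1, was higher, against 71.8% called (36.4% lower and 35.5% higher). The median log2 fold change over the 7 tested members was -1.19 for day 4 against day 0, beside -0.02 over all tested genes. The counts of 0 members higher at day 2 against day 0 and at day 4 against day 2 were also 0 at an unadjusted edgeR p below 0.05 and with DESeq2. The 3 comparisons share libraries, so their calls are not separate evidence.

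Together, the members made up 0.527% and 0.629% of all transcript counts in the day 0 replicates, 0.304% and 0.297% at day 2, and 0.289% in each day 4 replicate. Their summed level was 6220 ± 862 CPM at day 0, 2819 ± 59.8 CPM at day 2 and 2873 ± 63.6 CPM at day 4 (SD, n = 2). Both day 0 libraries lay above every later library, and the day 2 and day 4 libraries overlapped. Hsp90ab1 supplied 51.2% and 62.4% of the members' counts at day 0, 37.5% and 38.1% at day 2, and 43.0% and 39.9% at day 4.

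**Figure D1:**
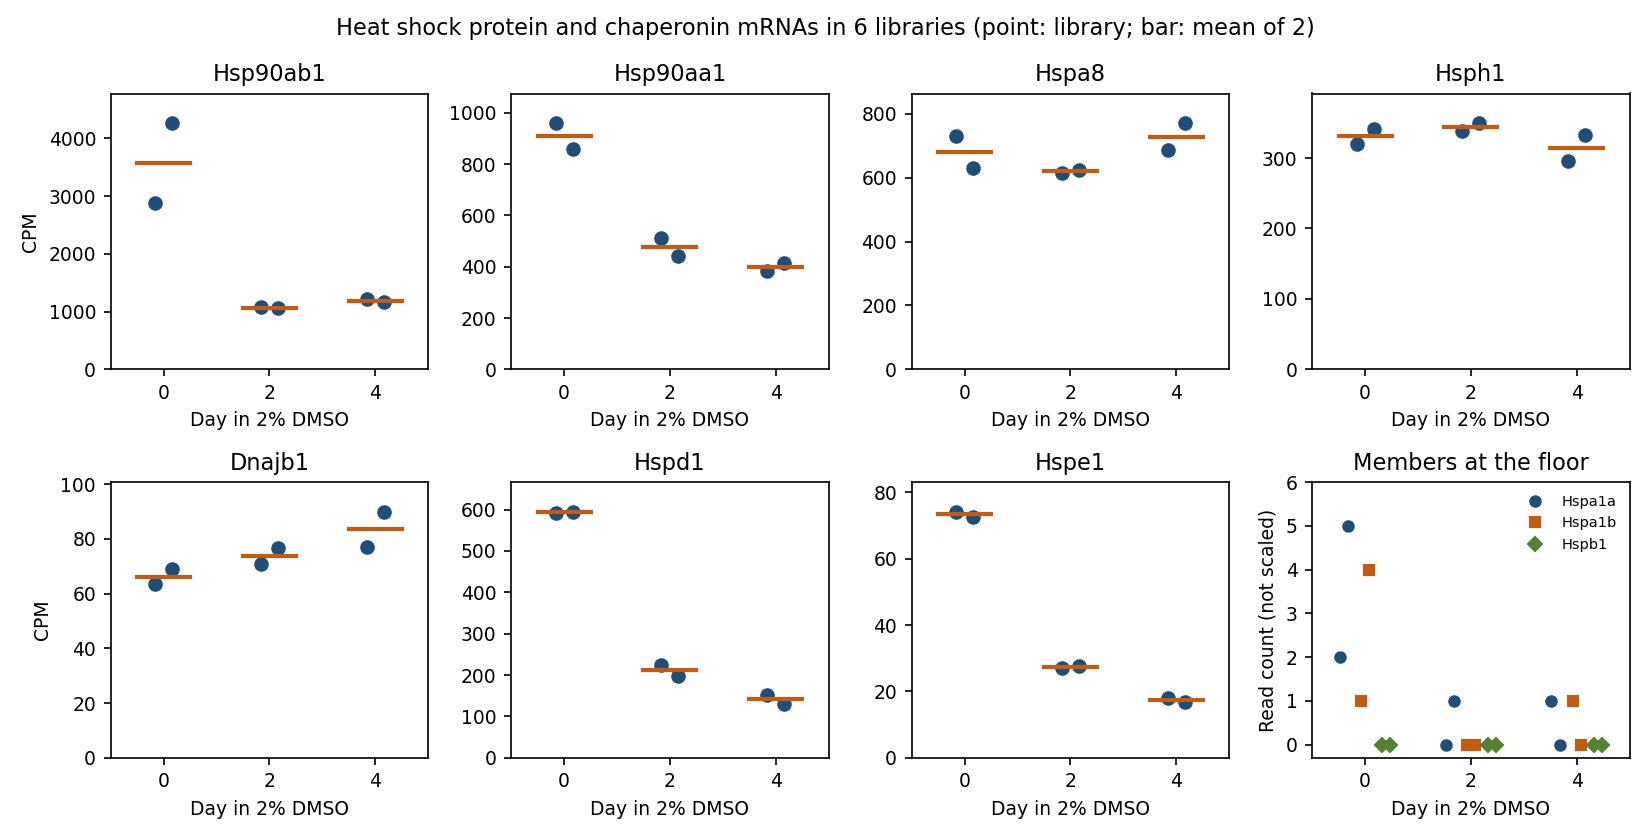
Level of each member by day of DMSO treatment, with CPM on the vertical axes of 7 panels and unscaled read counts in the last; each point is a library and each bar the mean of 2. Hsp90ab1, Hsp90aa1, Hspd1 and Hspe1 sit lower in every day 2 and day 4 library than in either day 0 library, while Hspa8 and Hsph1 stay within 614 to 771 and 296 to 349.6 CPM, and Hspa1a, Hspa1b and Hspb1 have at most 5 counts.

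Among the HSP90 genes, both cytosolic members fell between day 0 and day 2. Hsp90ab1, the constitutive beta form (NM_008302, chromosome 17 from 45567778 to 45573261, - strand, GRCm38), had 2871 and 4263 CPM in the day 0 replicates, 1073 and 1057 CPM at day 2, and 1215 and 1163 CPM at day 4. Every later library lay below both day 0 libraries, and the day 0 replicates were themselves 0.57 apart on the log2 scale, a gap that 5.98% of tested genes exceeded. The level at day 2 was 3.35-fold lower than at day 0, which is -1.74 ± 0.18 SE on the log2 scale (edgeR adjusted p = 1.35e-05). It was -1.44 and -2.00 at the ends of the range when each library was left out in turn, and it stayed called. Between day 2 and day 4 the log2 difference was 0.16, with a 95% interval of -0.23 to 0.55 (edgeR adjusted p = 0.527). The libraries of these days did not overlap either. With 2 libraries a day, a lack of overlap alone is thus weak evidence, here and for the genes below. How many of all tested genes lacked overlap was not counted.

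Hsp90aa1, the stress-responsive alpha form (NM_010480, chromosome 12 from 110691036 to 110696395, - strand), had 959.8 and 859.5 CPM at day 0, 513 and 442 CPM at day 2, and 384 and 414 CPM at day 4. The days did not overlap. Its fall by day 2 was 1.91-fold (log2 fold change -0.93 ± 0.13 SE, edgeR adjusted p = 0.000108), and by day 4 it was 2.28-fold (log2 fold change -1.19 ± 0.13 SE, edgeR adjusted p = 1e-05). The step from day 2 to day 4 was -0.26 on the log2 scale (95% interval -0.54 to 0.02, edgeR adjusted p = 0.149). That step was called when only the days compared were fitted (-0.27, edgeR adjusted p = 0.0386) and when day 0 replicate 1 (edgeR adjusted p = 0.0401) or day 0 replicate 2 (edgeR adjusted p = 0.041) was left out.

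The ratio of Hsp90aa1 to Hsp90ab1 within a library, in counts per kilobase, was 0.257 and 0.155 at day 0, 0.367 and 0.321 at day 2, and 0.243 and 0.273 at day 4. The beta form was the more abundant in each library. The ratio was highest at day 2, while the ranges at day 0 and day 4 overlapped. An exact permutation test of the spread among the day means used the 90 ways to assign the libraries to days. Its p was 0.133 (0.2 after Benjamini-Hochberg adjustment over the 3 ratios tested), and this design cannot give less than 0.0667. Whether day 2 by itself differed was not tested.

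In the HSP70 arm, 2 of the 3 tested members were not called in any comparison. Among all tested genes, the share called was 62.5% between day 0 and day 2, 30.3% between day 2 and day 4, and 71.8% over the whole course. How many of all tested genes were called in none of these was not counted. Hspa8, the constitutive HSC70 (NM_031165, chromosome 9 from 40801276 to 40805202, + strand, with small nucleolar RNA genes inside its span), had 731 and 629 CPM at day 0, 614 and 626 CPM at day 2, and 686 and 771 CPM at day 4. The day 0 and day 4 libraries overlapped, and both day 2 libraries lay just below them. The log2 fold change from day 0 to day 4 was 0.10, with a 95% interval of -0.18 to 0.38 (edgeR adjusted p = 0.499), so a change of more than 1.5-fold either way lies outside the interval's bounds.

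Hsph1, the HSP110 nucleotide exchange factor (NM_013559, chromosome 5 from 149616843 to 149636498, - strand), had 321 and 341 CPM at day 0, 338 and 349.6 CPM at day 2, and 296 and 332 CPM at day 4. Day 0 overlapped with both later days. The log2 fold change from day 0 to day 4 was -0.07 (95% interval -0.33 to 0.18, edgeR adjusted p = 0.575). No 50-base word of its transcript occurs in another gene's annotated transcripts, so its count is among the least open to shared reads.

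Dnajb1, the J-domain partner known as HSP40 (NM_018808, chromosome 8 from 83608175 to 83612653, + strand), was the member that rose. It had 63.4 and 68.9 CPM at day 0, 70.8 and 76.5 CPM at day 2, and 77.1 and 89.98 CPM at day 4. Both day 4 libraries lay above every earlier library. The rise over the whole course was 1.26-fold (log2 fold change 0.34 ± 0.11 SE, edgeR adjusted p = 0.019), and neither single step was called. Without day 4 replicate 2 it was 0.22 and no longer called (edgeR adjusted p = 0.209). With total counts in place of TMM factors, the step to day 2 was 0.35 and called (edgeR adjusted p = 0.0153).

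The ratio of Hsph1 to Hspa8 was 0.276 and 0.342 at day 0, 0.347 and 0.352 at day 2, and 0.272 and 0.271 at day 4. Both day 2 values were above all others and both day 4 values below all others. The exact permutation p was 0.0667, the smallest this design can give (0.2 after adjustment). The planned ratio of Hspa1a plus Hspa1b to Hspa8 could not be formed, because libraries at day 2 and day 4 held counts of 0.

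Hspa1a and Hspa1b, the heat-inducible HSP70 pair, had at most 5 counts in a library. Hspa1a (NM_010479, chromosome 17 from 34969359 to 34972156, - strand) had 2 and 5 counts at day 0, 0 and 1 at day 2, and 1 and 0 at day 4. Hspa1b (NM_010478, chromosome 17 from 34956429 to 34959238, - strand) had 1 and 4 counts at day 0, 0 in both day 2 libraries, and 1 and 0 at day 4. The 5 and 4 counts came from day 0 replicate 2, and every other library was at or below a floor of 3 counts, which is 0.0604 to 0.0831 CPM. No fold is given, since the values at day 2 and day 4 lie at or under that floor.

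The copies lie 10120 bases apart, and 60.3% of the 50-base words of Hspa1a and 62.3% of those of Hspa1b also occur in transcripts of other genes, so their counts are uncertain. Hspb1, which encodes the small heat shock protein HSP25 (NM_013560, chromosome 5 from 135887919 to 135889563, + strand), had 0 counts in every library, which allows up to 3 counts in each and covers counting error only. In its case 58.9% of the words occur in Hsp25-ps1, a pseudogene.

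Of the 7 tested members, the mitochondrial chaperonin pair had the largest falls by day 4. Hspd1, the HSP60 barrel (NM_010477, chromosome 1 from 55077833 to 55088243, - strand), had 591 and 595 CPM at day 0, 225 and 199 CPM at day 2, and 152 and 131 CPM at day 4. No 2 days overlapped. It was 2.80-fold lower at day 2 (log2 fold change -1.48 ± 0.13 SE, edgeR adjusted p = 3.33e-06) and 4.20-fold lower at day 4 than at day 0 (log2 fold change -2.07 ± 0.13 SE, edgeR adjusted p = 1.76e-07). The step from day 2 to day 4 was -0.59 (edgeR adjusted p = 0.00535), and this call was lost without day 2 replicate 1 (-0.50, edgeR adjusted p = 0.101) or without day 4 replicate 2 (-0.49, edgeR adjusted p = 0.0796).

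Hspe1, the HSP10 lid (NM_008303, chromosome 1 from 55088148 to 55091317, + strand), had 74.2 and 72.6 CPM at day 0, 27.1 and 27.8 CPM at day 2, and 18.0 and 16.8 CPM at day 4. Again no 2 days overlapped. It was 2.68-fold lower at day 2 (log2 fold change -1.42 ± 0.11 SE, edgeR adjusted p = 1.61e-06) and 4.22-fold lower at day 4 (log2 fold change -2.08 ± 0.11 SE, edgeR adjusted p = 7.07e-08). Its step from day 2 to day 4 was -0.66 (edgeR adjusted p = 0.00165) and stayed called with each library left out, with a largest edgeR adjusted p of 0.0307.

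The ratio of barrel to lid spanned 2.29 to 2.70 over the libraries. Hspd1 stood at 2.54 and 2.62 times Hspe1 per kilobase at day 0, 2.66 and 2.29 times at day 2, and 2.70 and 2.48 times at day 4. The days overlapped, and the exact permutation p over the 90 assignments was 0.867 (0.867 after adjustment), in a design that cannot pass 0.05, so this p does not show that the ratio was stable. The day 4 minus day 0 difference of the log2 ratio was 0.004. Their shared 96 bases lie on opposite strands, and 44.8% of the 50-base words of Hspd1 and 36.1% of those of Hspe1 occur in other genes, so the levels, and with them the ratio itself, are less certain than its spread.

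**Figure D2:**
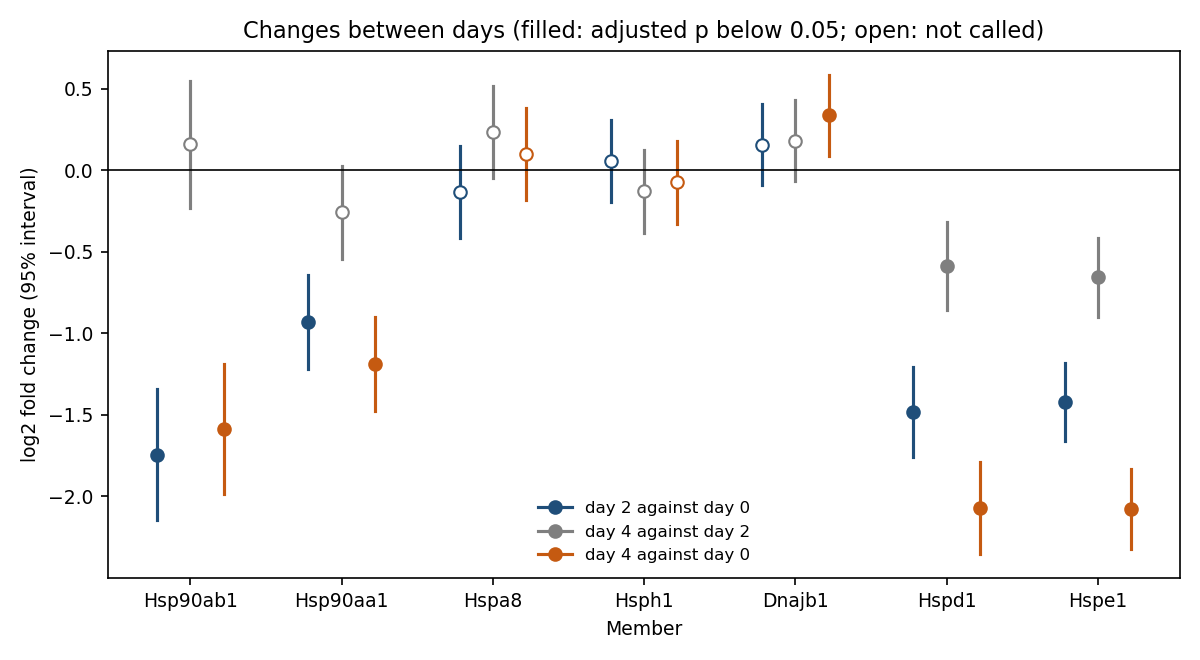
Log2 fold change of the 7 tested members on the vertical axis for each pair of days, with 95% intervals as vertical lines; filled points passed the threshold and open points did not. Hspd1 and Hspe1 are below 0 in all comparisons, Hsp90ab1 and Hsp90aa1 fell by day 2, and Dnajb1 lies above 0 at day 4 against day 0 with a value of 0.34.

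**Figure D3:**
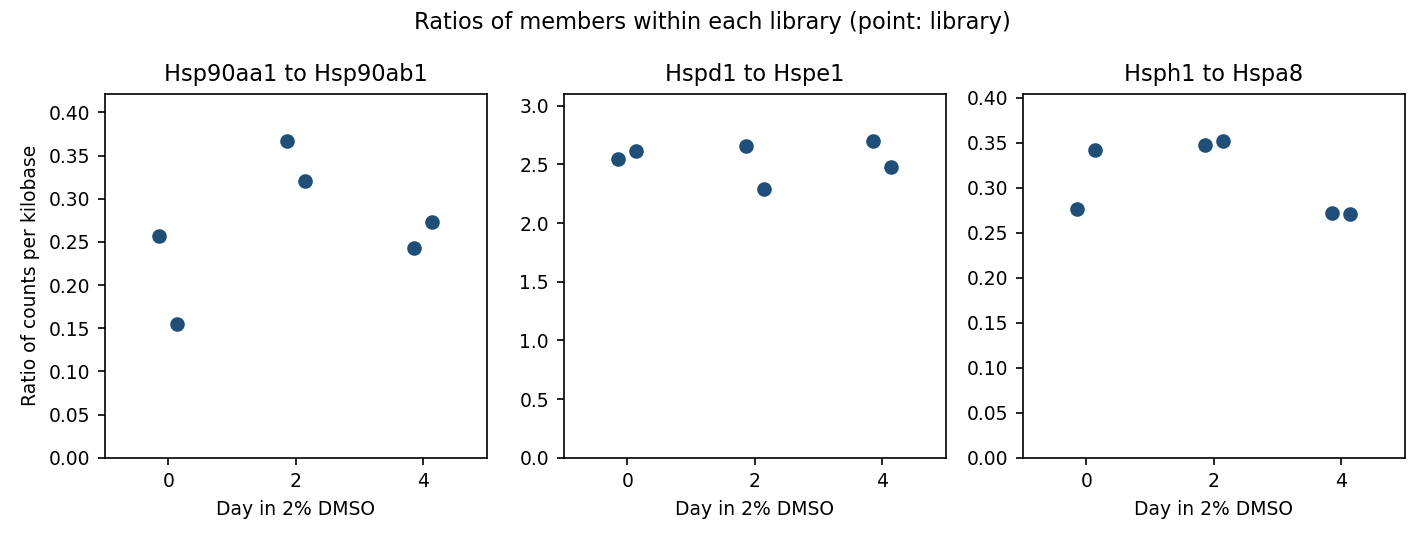
Ratio of counts per kilobase within each library (vertical axis, from 0) by day for the 3 ratios tested; each point is a library. Hspd1 to Hspe1 stays between 2.29 and 2.70 in all 6 libraries, whereas Hsp90aa1 to Hsp90ab1 spans 0.155 to 0.367.

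Levels of different genes were compared per kilobase of transcript. At day 0 the order was Hsp90ab1 (1139 to 1692 CPM per kilobase), Hspa8 (263 to 305), Hsp90aa1 (262 to 293), Hspd1 (244 to 246), Hspe1 (93.8 to 95.9), Hsph1 (84.3 to 89.8) and Dnajb1 (21.2 to 23.0), followed by Hspa1a, Hspa1b and Hspb1. Hspa8 and Hsp90aa1 overlapped and were not ordered by their spread, as were Hspa1a and Hspa1b. At day 2 the first 3 places were held by the same genes without overlap, and Hsph1 (89.0 to 92.0 CPM per kilobase) overlapped with Hspd1 (82.0 to 93.0). At day 4 Hsph1 (77.9 to 87.4 CPM per kilobase) stood above Hspd1 (53.9 to 62.6), and Dnajb1 (25.7 to 30.0) above Hspe1 (21.7 to 23.2). In these counted levels, Hsph1 thus passed both chaperonin genes, and Dnajb1 passed Hspe1. Shared sequence was largest for Hspa8, where 73.2% of the words occur in 11 other genes. It was 58.5% for Hsp90aa1, 44.8% for Hspd1, 36.1% for Hspe1, 4.49% for Hsp90ab1, 0.407% for Dnajb1 and 0% for Hsph1. How reads in shared sequence were counted is not known. The order of genes that differ in this share is therefore uncertain, which includes the first places and the crossings with Hspd1 and Hspe1.

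The wider chaperone system was followed through 158 further genes, of which 138 were tested. At day 4 against day 0, 77 were lower and 27 higher, beside 36.4% lower and 35.5% higher of all tested genes, and the median log2 fold change was -0.49, beside -0.02 over all tested genes. At day 2 against day 0, 73 were lower and 23 higher (median -0.48), beside 31.5% and 31.0% of all tested genes. Between day 2 and day 4, 30 were lower and 17 higher (median -0.04), a share called near the 30.3% of all tested genes, and this last count rests on single libraries, since 6 were called without day 2 replicate 1, 15 without day 2 replicate 2, 29 without day 4 replicate 1 and 10 without day 4 replicate 2.

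The cytosolic chaperonin TRiC/CCT, the ring that folds actin and tubulin, moved in the same direction as the mitochondrial barrel. The 8 subunits of the ring itself were lower at day 2 and at day 4 than at day 0, with median log2 fold changes of -1.08 and -1.50. Of all tested genes, 31.5% were lower at day 2 and 36.4% at day 4. Cct6a had 820.3 and 811 CPM at day 0, 367 and 332 CPM at day 2, and 220.4 and 189.96 CPM at day 4 (log2 fold change from day 0 to day 4 -1.99 ± 0.13 SE, edgeR adjusted p = 2.23e-07). Cct8 fell by 1.78, Cct3 by 1.58, Cct5 by 1.57, Tcp1 by 1.42, Cct7 by 1.39 and Cct2 by 1.30 on the log2 scale over the same days. Cct4 fell by 0.90, from 593 and 462 CPM to 291 and 275 CPM (edgeR adjusted p = 0.000155). Between day 2 and day 4, 7 of the 8 were lower again, beside 16.2% of all tested genes, and Cct7 was not called (-0.29, edgeR adjusted p = 0.0831). These calls belong to the wider count for this step, which rests on single libraries. Not all 7 held when day 2 replicate 1 was left out. Cct6b, a further subunit gene with a level of 0.298 ± 0.006 CPM at day 0 (SD, n = 2), and the cofactor Pdcl were higher at day 2 than at day 0, with log2 fold changes of 1.05 (edgeR adjusted p = 0.0349) and 0.52 (edgeR adjusted p = 0.00269), and both were chosen after their values were seen. With prefoldin and the other cofactors, 13 of 18 were lower at day 4 and 0 higher (0 also at an unadjusted edgeR p below 0.05 and with DESeq2). The shares over all tested genes were 36.4% lower and 35.5% higher. Pfdn5, a prefoldin subunit, had a log2 difference of 0.40 (edgeR adjusted p = 0.0744), was not called and lies outside the rule for named genes.

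**Figure D4:**
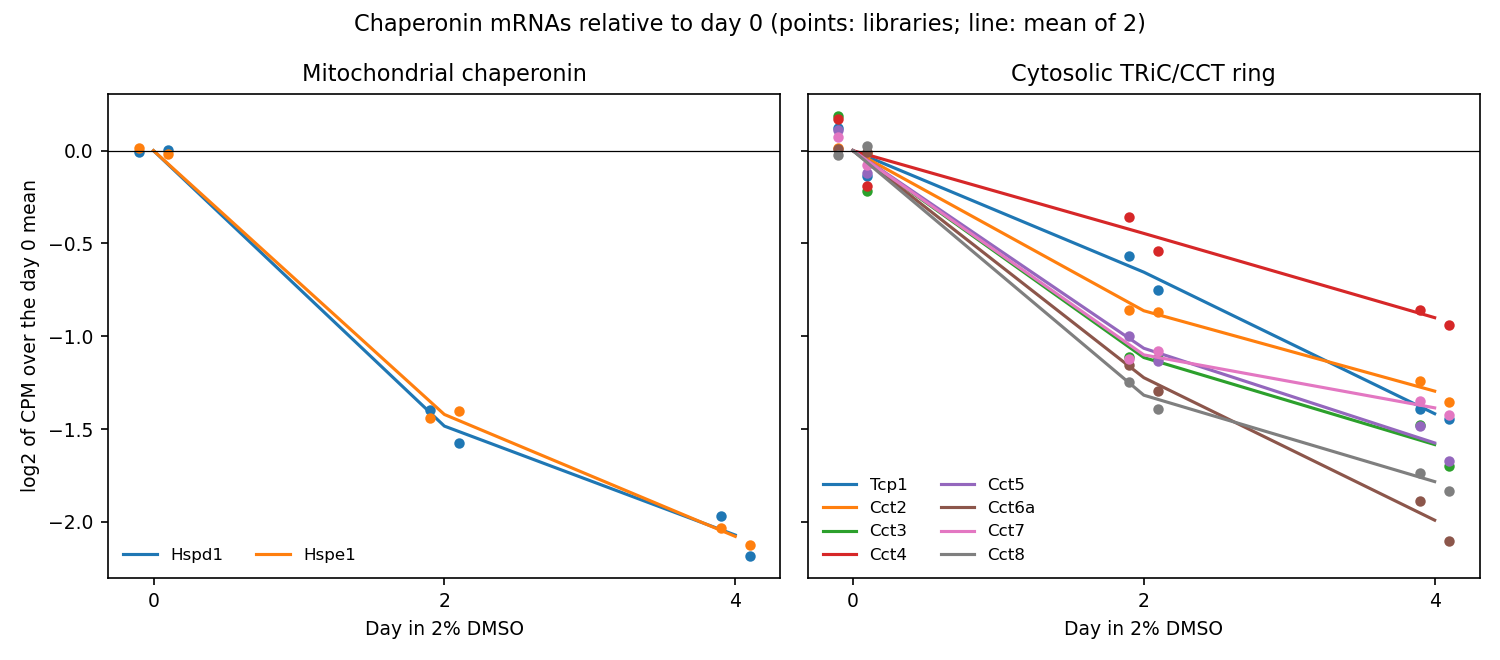
Level of each chaperonin mRNA relative to its day 0 mean on a log2 scale (vertical axis) by day; points are libraries and lines join the means of 2. Hspd1 and Hspe1 reach -2.07 and -2.08 at day 4 in the fitted comparison, and the ring subunits lie between -1.99 for Cct6a and -0.90 for Cct4.

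Of 12 mitochondrial chaperone cofactors and proteases, 8 were lower at day 4 than at day 0 and 0 higher, as also at an unadjusted edgeR p below 0.05 and with DESeq2. The share lower over all tested genes was 36.4% and the share called 71.8%. Lonp1, the matrix protease, fell by 1.58 on the log2 scale, Clpp by 1.46, and Grpel1, the nucleotide exchange factor of mitochondrial HSP70, by 1.29. Of the other HSP70 and HSP110 genes, 8 of 11 were tested, 6 were lower and 1 was higher, beside 36.4% lower and 35.5% higher of all tested genes. Hspa9, the mitochondrial HSP70 itself, had 713 and 753 CPM at day 0, 329 and 286 CPM at day 2, and 184 and 147 CPM at day 4 (log2 fold change from day 0 to day 4 -2.14, edgeR adjusted p = 2.88e-07), which places it beside Hspd1 and Hspe1 in size. Hspa4, a cytosolic HSP110, fell by 1.35 and Hspa14, a ribosome-associated HSP70, by 1.24, while Hspa2 rose by 0.49 from a low level of 6.40 ± 0.56 CPM (SD, n = 2). Both other HSP90 genes were lower at day 4, beside 36.4% of all tested genes. Hsp90b1 of the endoplasmic reticulum (ER) fell by 1.65 and Trap1 of mitochondria by 0.85.

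Among 41 tested J-domain genes besides Dnajb1, 16 were lower and 13 higher at day 4 against day 0, with a median log2 fold change of -0.14. These shares lie near the 36.4% lower and 35.5% higher over all tested genes. Dnajb2, a J-domain protein with ubiquitin-interacting motifs, had 16.9 and 15.3 CPM at day 0, 65.4 and 69.8 CPM at day 2, and 187 and 212 CPM at day 4. The days did not overlap, and both steps were called (log2 fold changes 2.07 and 1.56, edgeR adjusted p = 2.72e-07 and 5.25e-05). Dnaja4 rose by 1.47 and Dnajc4 by 1.45 over the whole course. Dnajc2, a ribosome-associated J-domain protein, fell by 1.85, Dnajc22 by 1.67 and Dnajc21 by 1.51.

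Of 29 cytosolic cochaperones, 19 were lower and 4 higher at day 4, beside 36.4% and 35.5% of all tested genes. Hspbp1, a nucleotide exchange factor of HSP70, fell by 2.59 on the log2 scale from day 0 values of 65.8 and 137 CPM that were far apart. Ppid, the HSP90-bound cyclophilin, fell by 1.81, and Ahsa1, the activator of the HSP90 ATPase, fell by 1.61. Stub1, the ubiquitin ligase CHIP that marks chaperone-bound protein for the proteasome, rose from 75.6 and 64.2 CPM to 133 and 148 CPM (log2 fold change 1.01, edgeR adjusted p = 1.98e-05). Bag3, which links HSP70 to autophagy, rose by 0.61, and Ahsa2 also by 0.61.

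All 17 genes of the ER folding list differed between day 0 and day 4, with 11 lower and 6 higher at day 4, beside 71.8% called, 36.4% lower and 35.5% higher over all tested genes. Pdia6, a disulfide isomerase, fell by 2.03, Sdf2l1 by 1.92 and Herpud1 by 1.88, whereas Syvn1, the ubiquitin ligase of ER-associated degradation, rose by 1.35, the stress sensor Ern1 by 1.17, and Sil1 by 0.89. Of the other small heat shock proteins, 2 of 9 were tested and 1, Hspb6, was lower at a level of 2.06 ± 0.03 CPM at day 0 (SD, n = 2); that gene lies outside the rule for named genes and was chosen after its values were seen.

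**Figure D5:**
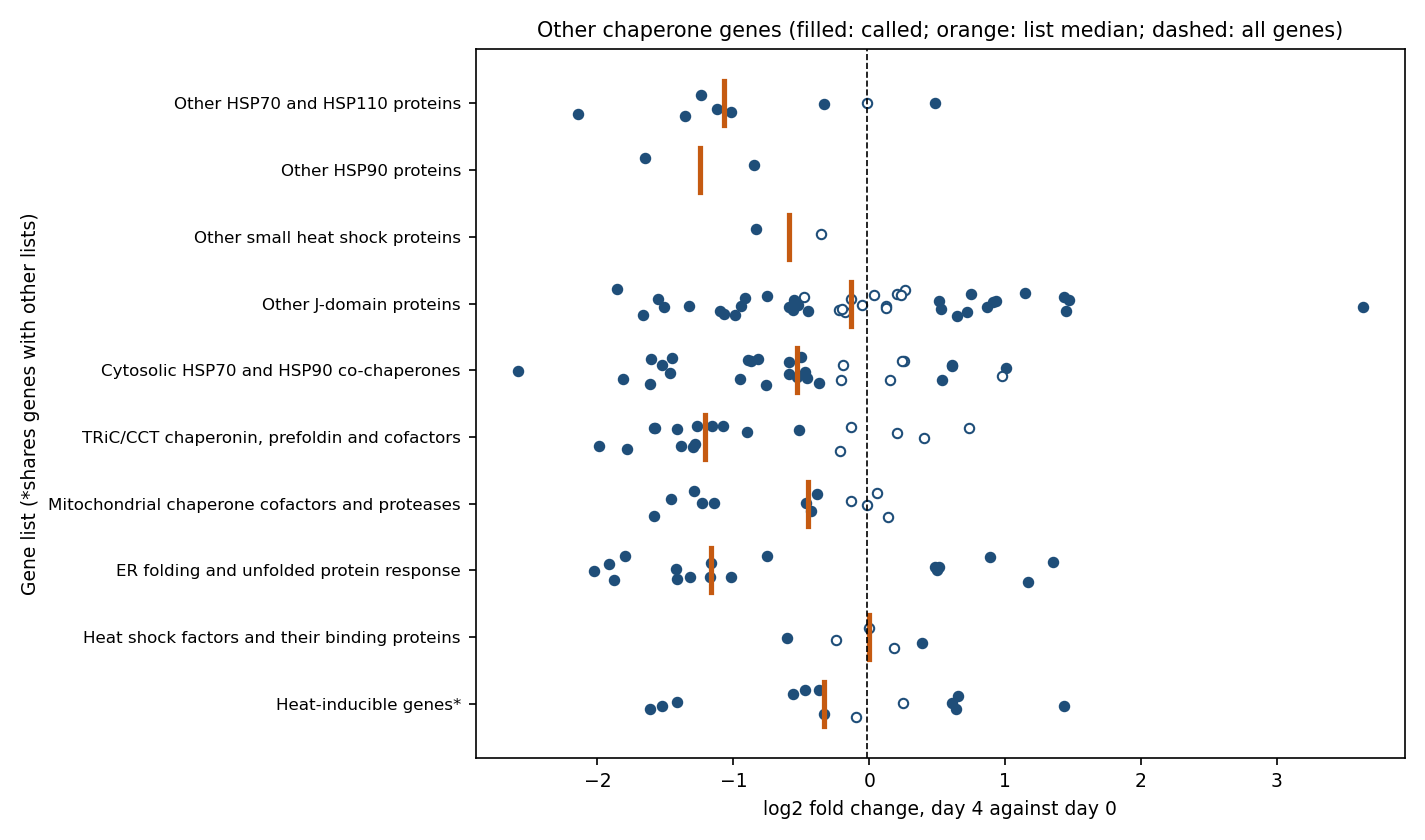
Log2 fold change of each tested gene of the wider chaperone lists for day 4 against day 0 (horizontal axis), by list; filled points were called, open points were not, the orange bar is the list's median and the dashed line the median of all tested genes, -0.02. The TRiC/CCT and ER lists lie mainly to the left, with medians of -1.21 and -1.17, while the J-domain list spreads to both sides up to 3.63 for Dnajb2.

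Of 5 tested heat shock factors and binding proteins, 1 was higher and 1 lower at day 4, beside 71.8% of all tested genes called. Hsf1, the heat shock factor that drives the stress response, had 48.4 and 47.8 CPM at day 0, 40.7 and 41.3 CPM at day 2, and 48.7 and 47.6 CPM at day 4, with a log2 difference from day 0 to day 4 of 0.001 (95% interval -0.22 to 0.22, edgeR adjusted p = 0.996). Hsf2 rose by 0.39 (edgeR adjusted p = 0.0245), from 14.1 and 11.6 CPM to 17.3 and 16.2 CPM. Hsf4 fell by 0.61 (edgeR adjusted p = 0.00434), and Hsbp1, a binding partner of heat shock factors, had a log2 difference of 0.19 (edgeR adjusted p = 0.161). Among 13 tested genes of a heat-inducible list, which shares genes with the lists above, 7 were lower and 4 higher at day 4, beside 36.4% and 35.5% of all tested genes. Dnajb4 rose by 1.44 and Dedd2 by 0.64, and Fkbp4, an HSP90-bound immunophilin, fell by 1.53.

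The genes whose profile lay nearest to that of Hsp90ab1, the member with the highest mean CPM, were Vasp, Morf4l2, Nucb1, Chd3 and Vamp8, by Euclidean distance of log2 CPM centred over the 6 libraries among 7407 genes. The distances were 0.10, 0.15, 0.21, 0.24 and 0.32. Vasp had 74.7 and 105 CPM at day 0, 25.6 and 26.0 CPM at day 2, and 31.0 and 29.9 CPM at day 4. Each of the 5 shared the gap between the day 0 replicates, so the match rests in part on that pair of libraries.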

How the data were processed

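Per the labels and the study's methods, poly(A)-selected strand-specific libraries were trimmed with cutadapt and aligned to mm10 with TopHat. The authors deposited raw read counts per RefSeq transcript, 1 table per library, with no normalization and no pooling. The submitters' processing notes also name HTSeq and DESeq2. Counter settings are not given in the sources used here. Reads on no feature (50.5% to 58.4% of a library) were left out.

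Symbols came from a RefSeq table for 32199 of 32654 transcripts, from GENCODE for 187, and 268 had none. Genes are represented by their transcript of highest mean count. edgeR 4.0.16 (R 4.3.3) used TMM factors (0.921 to 1.07), filterByExpr by day, which kept 18351 transcripts, and a quasi-likelihood test (glmQLFit, glmQLFTest) in 1 fit of all 6 libraries, with a mean per day. P-values were adjusted by Benjamini-Hochberg over all transcripts kept, and a call is an adjusted p below 0.05. The edgeR p-values set each difference between day means against the spread between replicates, estimated over all 6 libraries with information shared across transcripts. The fit was tested on simulated data in which few transcripts changed, all at day 4, and the outcome is not reported here. Transcript lengths for levels per kilobase came from GENCODE M21, as did the 50-base words.

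Of 4 planned ratios, 3 could be tested, so adjustment was over 3. Named genes are the members, Hsf1, Hsf2, Hsbp1, the 8 ring subunits, up to 3 rises and 3 falls per list by day 4 among calls with average log2 CPM of at least 1, and the 5 nearest profiles (average log2 CPM of at least 4). Some named genes are not reported here. Members and lists were chosen with earlier results of these data known. Alternatives were DESeq2 1.42.0, other scalings, no filter, 2-day fits, the replicate block, a log2 limit of 1, counts summed per gene, and leaving out each library.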

Additional observations from a re-analysis of the deposited data

How the results depend on the processing

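Of 294 member log2 fold changes recomputed over 14 settings, 287 kept their side of the threshold, 283 of them with their sign, 3 lost and 4 gained a call. The 4 that turned sign were uncalled values near 0, and 0 called values did. Of the 10 members, the number called stayed at 4 for day 2 against day 0, and ran from 1 to 3 for day 4 against day 2 and from 4 to 5 for day 4 against day 0, with each library left out. The wider chaperone genes called ran from 80 to 102, from 6 to 65 and from 100 to 112 in the same order. Requiring also a log2 change of 1 or more left 0 members for day 4 against day 2, and 40, 1 and 54 wider genes for day 2 against day 0, day 4 against day 2 and day 4 against day 0, by construction. The Hspd1 to Hspe1 log2 ratio difference, day 4 minus day 0, ran from -0.0567 to 0.0646 with each library left out.

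Total counts in place of TMM moved the median of all transcripts by 0.20, -0.08 and 0.11 on the log2 scale, and called 5001 genes as higher and 2881 as lower for day 2 against day 0 (3841 and 3902 with TMM), 1228 and 2532 for day 4 against day 2 (1739 and 2010), and 4916 and 4006 for day 4 against day 0 (4393 and 4501). Under it the uncalled values of Hspa8 for day 2 against day 0 (0.06) and of Hsph1 for day 4 against day 0 (0.04) were above 0. Without day 0 replicate 2, Hspa8 was -0.02 for day 4 against day 0, and without day 4 replicate 1, Hsph1 was 0.01. Same-numbered replicates deviated together with correlations of 0.034, 0.030 and 0.117 across 18351 transcripts. The labels give a replicate number only, and these correlations cannot tell whether same-numbered samples shared a culture or a batch. With the replicate block, 4, 2 and 5 members and 97, 47 and 104 wider genes were called. Counts of Hspa1a, Hspa1b and Hspb1 were too few to compare between days.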
